A study of Drosophila melanogaster with 6 samples.

Results

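The genes described here are 10 components of the phototransduction cascade of the *Drosophila* compound eye: the arrestins *Arr1* and *Arr2*, the phospholipase *norpA*, the channels *trp* and *trpl*, the scaffold *inaD*, the kinases *inaC* and *rdgA*, the myosin *ninaC* and the lipid phosphatase *laza*. They were taken by name, and every probe set that the array annotation assigns to exactly 1 of them was used. Of the 10 genes, 8 had such a probe set, with 11 probe sets in all out of 15131 on the array. *norpA*, the phospholipase C at the centre of the cascade, and *ninaC*, a myosin with a kinase domain, were not analysed here. In RefSeq *Arr1* lies on chromosome arm 2L, *Arr2* and *laza* on 3L, *trp* on 3R, *trpl*, *inaC* and *inaD* on 2R, and *rdgA* on the X chromosome. The samples were 6 pools, labelled as 75 to 100 heads each of female *Drosophila melanogaster* of the strain Canton S. There were 3 biological replicates from flies 10 days old and 3 from flies 40 days old. No transgene or treatment is named for either age. RNA was measured on Affymetrix 3' expression arrays, and the comparison asks which transcripts differ between young and older adults. Expression values are on a log2 scale, on which a difference of 1 is a doubling.

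In fly photoreceptors, light converts rhodopsin to metarhodopsin, which activates a Gq protein and through it phospholipase C. Phospholipase C splits a membrane phosphoinositide into inositol trisphosphate and diacylglycerol, and the TRP and TRPL cation channels open. Arrestins bind metarhodopsin and end its signal, while a diacylglycerol kinase and a lipid phosphatase act in opposite directions on the pool of diacylglycerol and phosphatidic acid.

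Some markers in these samples went against their label as female, and some went against RNA of heads alone. The 12 male reproductive genes listed as markers, among them the seminal fluid genes *Acp53Ea* and *Acp98AB*, all had a mean above 4. Averaged over the list, the log2 level was between 13.82 and 14.19 in the 10-day samples and between 13.98 and 14.12 in the 40-day samples. The sperm protein gene *dj* had a mean of 8.91 and was the 1 marker of the list called between the ages, lower at 40 days. Of the 12 genes, 9 had differences above 0. Of 12 ovary and egg genes with a probe set, 11 lay under a mean of 4, near background, while *grk* had a mean of 9.43. The yolk protein genes *Yp1*, *Yp2* and *Yp3*, placed in the fat body list, had means of 7.29, 3.61 and 8.86. Neuron, glia and photoreceptor markers were present beside muscle, fat body, hemocyte and gut markers, but not every gene of these lists was. Under a mean of 4 lay 4 of 10 genes of photoreceptor structure and identity, 2 of 9 fat body, 1 of 10 hemocyte and 1 of 9 neuron genes. In the gut list *alphaTry* and *Jon65Aiv* had means of 15.21 and 14.96, and 1 of 8 genes lay under a mean of 4. Which tissues the samples held was not tested. The samples are therefore called by age alone below. With RNA from pooled tissue, fewer photoreceptors, less RNA per photoreceptor and RNA of the same genes from other cells cannot be told apart. The values of the cascade genes therefore do not describe the eye alone. Array medians ran from 7.51 to 7.53. With 3 arrays per age, the precision of each difference is limited.

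*laza* was the cascade gene that differed most between the ages, with lower values in older flies, while the arrestins, both channels, the scaffold and both kinases differed by no more than 0.22 on the log2 scale. Of the 11 probe sets, 9 had a mean log2 level of at least 4 and were tested. None of the 9 was called by limma at a Benjamini-Hochberg adjusted p of 0.05 over 10286 probe sets, where 0.340% of all probe sets were called. At an unadjusted p under 0.05, 1 of the 9 passed, against 13.1% of all probe sets. Samples of the same replicate number varied together across the ages, so the fit was repeated with the replicate number as a block. With the block 1 of the 9 was called, *laza*, against 1.92% of all probe sets, or 1.30% called lower at 40 days. At an unadjusted p under 0.05 the block gave 2 of the 9, *laza* and *Arr2*, against 25.1% of all. Values of the ages did not overlap for 1 of the 9, again *laza*, against 19.8% of all probe sets. The median difference was 0.094 over the 9, against 0.0070 over all tested, and the median size of a difference was 0.14 against 0.12. With each of the 8 genes counted once, through its brightest probe set, the median was 0.045, with 4 above and 4 below 0. A level cannot be compared between probe sets, since each has its own probes, so genes are compared below only by their difference between ages.

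**Figure D1:**
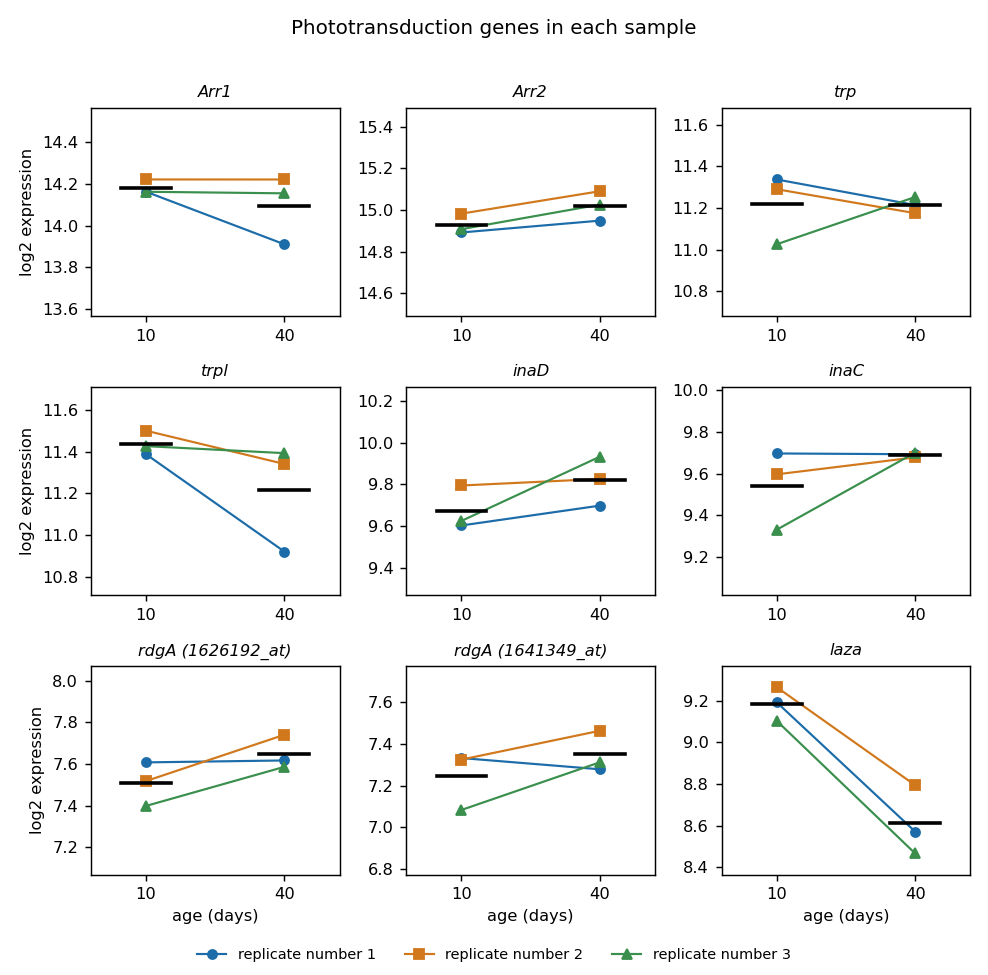
Log2 expression of the 9 tested probe sets (vertical axis, 1 log2 unit high in every panel) at 10 and 40 days (horizontal axis). Points are single samples, lines join samples of the same replicate number, and black bars are age means of 3 samples. *laza* is lower at 40 days along all 3 lines, whereas the lines of *trp* run in both directions.

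The arrestins end the light response by capping activated rhodopsin. *Arr2*, the major arrestin of the photoreceptor, had log2 levels of 14.89, 14.98 and 14.91 in the 10-day samples of numbers 1, 2 and 3, and of 14.95, 15.09 and 15.03 in the 40-day samples of the same numbers. The older sample was the higher one in all 3 pairs, by 0.057, 0.11 and 0.12, but the ages overlapped. The mean difference was 0.094 ± 0.055 (log2 ± SE, n = 3 each), or 6.73% with a 95% interval from -2.82% to 17.2%, and *Arr2* was not called (limma adjusted p = 0.508, and 0.189 with the block). Without the 40-day sample of number 2 the difference was 0.060. Of the spread of *Arr2* over the 6 samples, 47.5% lay between the ages, 48.7% between the replicate numbers and 3.83% in neither.

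*Arr1*, the second arrestin, which in photoreceptors also serves the light-driven uptake of rhodopsin, gave 14.16, 14.22 and 14.16 at 10 days. At 40 days it gave 13.91, 14.22 and 14.15. Only the 40-day sample of number 1 stood apart, below the other 5, and the remaining pairs differed by -0.00024 and -0.0075. The mean difference of -0.087 ± 0.089 was not called (limma adjusted p = 0.708), and without that sample it was 0.0059. Without the 40-day sample of number 2 it was -0.15. The 2 arrestins thus had mean differences of opposite sign, and neither was called.

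The light response is carried by 2 channels. *trp*, which encodes the main calcium-permeable channel, gave 11.34, 11.29 and 11.03 at 10 days and 11.21, 11.17 and 11.25 at 40 days. The 10-day samples enclosed the 40-day samples, with the 10-day sample of number 3 the lowest of the 6. The mean difference was -0.0036 ± 0.097 (limma adjusted p = 0.992), with a 95% interval from -0.24 to 0.23. Between 40 and 10 days 2 pairs were lower and 1 was higher, and 98.0% of tested probe sets differed by as much or more.

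*trpl* encodes the second channel, which leaves the light-sensing membrane of the photoreceptor during light adaptation. It gave 11.39, 11.50 and 11.43 at 10 days and 10.92, 11.34 and 11.39 at 40 days. The older sample was lower in every pair, by amounts that ran from -0.034 in number 3 to -0.47 in number 1, and the ages just overlapped. The difference of -0.22 ± 0.14 corresponds to -14.1%, with an interval from -31.8% to 8.14%, and was not called (limma adjusted p = 0.522, and 0.237 with the block). It was -0.071 without the 40-day sample of number 1, the sample in which *Arr1* was lowest too, and -0.31 without the 40-day sample of number 3.

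INAD, a protein with several PDZ domains, holds TRP, the phospholipase and the eye protein kinase C together in a signalling complex. *inaD* gave 9.60, 9.79 and 9.62 at 10 days and 9.70, 9.83 and 9.93 at 40 days. The older sample was the higher one in all pairs, by 0.095, 0.031 and 0.31, and the ages overlapped. Its mean difference of 0.14 ± 0.093 was not called (limma adjusted p = 0.537), and it was 0.088 without the 40-day sample of number 3.

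*inaC* encodes that protein kinase C, which is needed to switch the response off and adapt it. It gave 9.70, 9.60 and 9.33 at 10 days and 9.69, 9.68 and 9.70 at 40 days. The older samples lay close together, with an SD of 0.012 against 0.19 at 10 days, where number 3 was the lowest of the 6 samples. The difference of 0.15 ± 0.11 was not called (limma adjusted p = 0.572). It was 0.044 without that 10-day sample and 0.23 without the 10-day sample of number 1.

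The lipid branch of the cascade holds *rdgA*, the diacylglycerol kinase that makes phosphatidic acid and whose loss causes retinal degeneration, and *laza*, the phosphatase that turns phosphatidic acid back to diacylglycerol. *rdgA* had 4 probe sets, of which 2 (1628730_at and 1635851_at) stayed at 2.91 and 2.62 in all 6 samples, the flat values of background, and were not tested. The third, 1626192_at, gave 7.61, 7.52 and 7.40 at 10 days and 7.62, 7.74 and 7.59 at 40 days. All 3 pairs were higher at 40 days and the ages overlapped. The fourth, 1641349_at, gave 7.33, 7.33 and 7.08 at 10 days and 7.28, 7.46 and 7.31 at 40 days, with number 1 lower and the other pairs higher. Their mean differences were 0.14 ± 0.084 and 0.10 ± 0.099, and neither was called (limma adjusted p = 0.514 and 0.680). The 10-day sample of number 3 was the lowest of the 6 on both, and without it the differences were 0.085 and 0.023. Without the 40-day sample of number 2 they were 0.093 and 0.048.

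*laza* gave 9.19, 9.26 and 9.10 at 10 days and 8.57, 8.79 and 8.47 at 40 days. Every 40-day sample lay below every 10-day sample, and the 3 pairs differed by -0.62, -0.47 and -0.64. The mean difference was -0.58 ± 0.10 (log2 ± SE, n = 3 each), a level of 0.671 of that at 10 days with a 95% interval from 0.562 to 0.801. It was not called without the block (limma adjusted p = 0.144) and was called with it (limma adjusted p = 0.0379, SE 0.069). Among all tested probe sets it ranked at 105 by p without the block and at 131 with it, and 3.44% of probe sets differed by as much or more.

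The spread of *laza* lay mostly between the ages. The ages made up 87.8% of it, the replicate numbers 10.7% and the rest 1.48%, and 1.99% of all tested probe sets had a larger share between the ages. Over all tested probe sets the median share was 22.0% between ages and 49.2% between numbers. Over the 9 cascade probe sets these medians were 34.0% and 35.4%. With the block and number 1, 2 or 3 left out, the difference was -0.55, -0.63 or -0.54. *laza* was then not called (limma adjusted p = 0.225, 0.0794 and 0.109). With fewer samples, calls over all probe sets fell as well, from 198 to 7, 118 and 32. These fits on pairs of numbers were chosen after the data were seen.

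**Figure D2:**
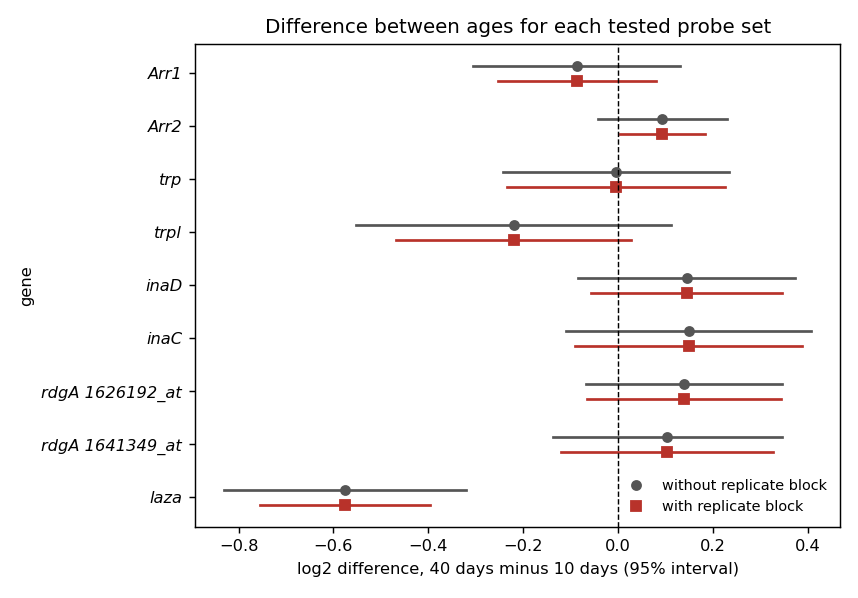
Log2 difference between 40 and 10 days (horizontal axis) for the 9 tested probe sets (vertical axis), with 95% intervals from limma. Grey circles are the fit without and red squares the fit with the replicate number as a block. Without the block only the interval of *laza*, from -0.83 to -0.32, lies wholly on one side of 0, and with the block that of *Arr2* does too, from 0.0045 to 0.18.

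The 8 probe sets other than *laza* had differences between -0.22 and 0.15. Their 95% intervals together spanned -0.55 to 0.41, so a fold change beyond the range of 0.682 to 1.33 lay outside the interval of every one of them. Their limma adjusted p lay between 0.508 and 0.992, and between 0.189 and 0.985 with the block. Missing the threshold does not show that the ages were alike. All 3 pairs had the same sign for 6 of the 9 probe sets, against 49.2% of all tested probe sets. Higher in all pairs were *Arr2*, *inaD* and 1 probe set of *rdgA*, and lower in all pairs were *Arr1*, *trpl* and *laza*. Some of these pairs were close to 0, at -0.00024 and -0.0075 for *Arr1* and 0.0093 in number 1 for *rdgA*. The standard error was smaller with the block for all 9, as for 84.6% of all tested probe sets.

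The sample with the lowest or highest value varied among these genes. The 10-day sample of number 3 was the lowest of the 6 for 4 of the 9 probe sets, those of *trp* and *inaC* and both of *rdgA*. It was the lowest for 17.9% of all tested probe sets. The 40-day sample of number 1 was the lowest for 2 of the 9, *Arr1* and *trpl*, near its share of 18.5% of all. The 10-day sample of number 1 was also the lowest for 2, against 20.8% of all. The 10-day sample of number 2 was the highest for 3, against 22.0% of all. The 40-day sample of number 2 was the highest for 3, *Arr2* and both of *rdgA*, against 14.3%. Over all tested probe sets the first principal component, 45.6% of the spread, held number 2 at 26.8 and 20.1 and the other 4 samples below 0. Without both samples of number 2 the difference of *laza* was -0.63 (limma adjusted p = 0.264), and none of the 9 was called.

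Other genes with a role in the eye gave a similar picture. They came from 5 lists of 58 genes, of which 43 had a probe set. Of these, 35 were tested, each through its brightest probe set. The lists were made by role, and their genes can also be expressed outside the eye. Their values therefore do not describe the eye alone. None of the 35 was called by limma, with or without the block, where 0.340% and 1.92% of all probe sets were. At an unadjusted p under 0.05, 5 passed in each fit, against 13.1% of all probe sets without and 25.1% with the block. Of the 35, 17 differences were above and 18 below 0, with a median of -0.00029. Ages did not overlap for 9 of them, 4 higher and 5 lower at 40 days, against 19.8% of all probe sets.

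Other phototransduction genes, 18 tested of 24 listed, divided evenly, with 9 differences above and 9 below 0 and a median of 0.011. *rdgC*, the calcium-dependent phosphatase that removes phosphate from rhodopsin, gave -0.25 ± 0.076 (limma adjusted p = 0.308), from 9.15, 9.14 and 8.97 to 8.88, 8.83 and 8.80. Its dimmer probe set gave -0.16 with overlapping ages. *stops*, a SOCS box protein gene needed for normal levels of the phospholipase, gave 0.26 ± 0.10 (adjusted p = 0.373), from 6.81, 7.05 and 6.89 to 7.11, 7.34 and 7.10. *Plc21C*, another phospholipase C gene, and *Camta*, a calmodulin-binding transcription factor gene that acts in deactivating rhodopsin, gave -0.21 and -0.25 (limma adjusted p = 0.443 and 0.460).

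*Rh7* was the 1 rhodopsin gene of 7 listed that was analysed here. It gave 0.30 ± 0.11 (limma adjusted p = 0.353) at a dim level of 4.96. Another probe set of *Rh7* was flat at 2.07 in all samples and was not tested. Among 6 tested genes of photoreceptor structure and identity, *gl*, a zinc finger transcription factor required for photoreceptor formation, gave 0.47 ± 0.11 (limma adjusted p = 0.226, and 0.0555 with the block), from 6.96, 6.65 and 6.72 to 7.40, 7.18 and 7.17. *chp*, a surface protein gene of photoreceptors, gave 0.13, *Pph13* -0.087 and *sdt* 0.12 (adjusted p between 0.460 and 0.645). *gl* and *chp* were higher in every 40-day sample than in any 10-day sample.

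Photoreceptors signal with histamine, and 4 genes of its synthesis and recycling were tested. *e*, which encodes the enzyme that joins histamine to beta-alanine in glia, gave 6.27, 6.28 and 6.37 at 10 days and 5.76, 5.35 and 5.63 at 40 days. Its difference of -0.72 ± 0.12 was the largest in size of the 35 and was not called (limma adjusted p = 0.108, and 0.0550 with the block). The transporter gene *CarT*, the histamine-making enzyme gene *Hdc* and *t*, which releases histamine again, gave -0.12, 0.092 and -0.054. Of the 6 tested eye pigment genes, *bw*, *p*, *st* and *ry* gave -0.13, -0.070, 0.063 and -0.24 (limma adjusted p between 0.740 and 0.817).

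**Figure D3:**
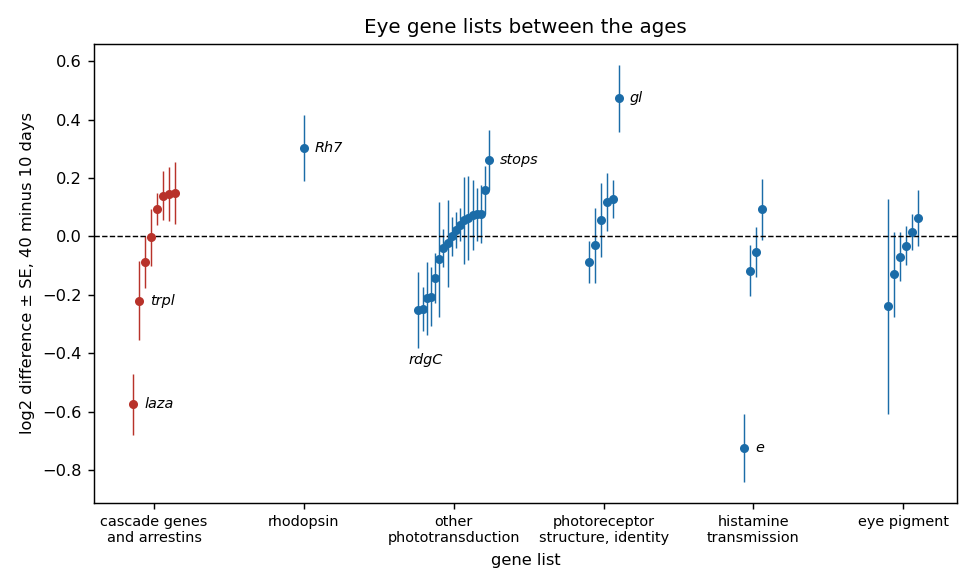
Log2 difference between 40 and 10 days with its SE (vertical axis) for tested genes of 6 lists (horizontal axis), 1 point per gene through its brightest probe set, ordered by value within a list. The cascade genes and arrestins are in red and the 5 other eye lists in blue. *laza*, at -0.58, and *e*, at -0.72, lie lowest, and *gl*, at 0.47, highest.

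Marker levels of other tissues are given beside the *laza* result. The mean log2 level of 8 muscle markers lay between 11.40 and 11.51 at 10 days and between 11.68 and 11.82 at 40 days, without overlap, and 7 of the 8 had differences above 0. With the block 2 of them were called higher, *Act87E* and *TpnC73F* (limma adjusted p = 0.0366 and 0.0416), where 64 of all 10286 tested probe sets were. Called lower, as *laza* was with the block, were *dj* (-1.18, limma adjusted p = 0.00347, and 0.0123 with the block) and, with the block only, the fat body gene *Lsp2* (-2.19, 0.0317) and the hemocyte gene *PPO1* (-1.04, 0.0367). The list of *dj* had 12 tested genes, with 9 differences above 0 and 3 below. The lists of *Lsp2* and *PPO1* had 7 and 9 tested genes, with 3 and 5 differences above 0. *Lsp2* varied widely within each age, with SDs of 2.32 at 10 days and 2.65 at 40 days. Its SE without the block was 1.67 (limma adjusted p = 0.599). In the same list *Yp1* differed the other way, by 2.01 ± 0.88, and was not called (limma adjusted p = 0.403, and 0.154 with the block). The 9 glia markers lay between 8.75 and 8.88 and then between 8.67 and 8.85, and 8 tested neuron markers had 4 differences above and 4 below 0. The 18 other phototransduction genes and the dim *Trpgamma* together lay between 9.15 and 9.28 at 10 days and between 9.19 and 9.22 at 40 days. The part of these tissues in the *laza* difference was not tested.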

How the data were processed

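Values for each probe set and sample were used as deposited. They are log2 expression values that the authors made with GCRMA, per the submitters' processing notes, which corrects background, normalizes between arrays and combines the probes of a probe set. The labels give 150 ng of RNA amplified per sample with biotin label. The log2 scale follows from the range of the deposited values, 2.06 to 16.1. The version, the array scans and detection calls were not used here.

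Genes came from the array annotation, 13333 probe sets with 1 gene, 390 with several and 1408 with none. For 13250 probe sets the symbol was taken from RefSeq genes by gene ID (assembly Release 6 plus ISO1 MT). Probe sets with a mean of at least 4 were tested with limma 3.58.1 (lmFit, eBayes with trend, two-sided) in R 4.3.3, with p-values adjusted by Benjamini-Hochberg over all 10286. Intervals are limma's 95% intervals, not adjusted. Tables and plots used pandas 2.3.3 and matplotlib 3.10.9. The fit without the block was tested on simulated data without pairing. The planted differences were larger than those of the cascade genes, so smaller ones and the fit with the block were not covered. The planned motif search in promoters was not run, as no promoter sequences were used here.

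The labels number the replicates without saying that numbers pair samples. After age means were removed, samples of numbers 1, 2 and 3 correlated across the ages at 0.707, 0.772 and 0.353, all above 0.1, and were taken as pairs.

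Members, lists and alternatives were chosen with earlier results of these data known. Every member probe set is named, and of each other eye list up to 4 genes with the smallest p. Marker levels are means over the brightest probe set of each gene.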

Additional observations from a re-analysis of the deposited data

How the results depend on the processing

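Over the 9 tested probe sets and 17 alternatives to the fit, 144 of 152 differences kept their sign and their side of the threshold. *laza* was called with the replicate block (adjusted p = 0.0379) and in none of the other 16, where its adjusted p ran from 0.114 to 0.420 and its difference from -0.67 to -0.50. The replicate block thus raised the count of cascade probe sets called from 0 to 1, and it changed no other call among them. *trp*, close to 0, turned its sign after quantile normalization (0.0036), with array weights (0.0185), without both samples of number 2 (0.0520) and in part with single samples left out (-0.0994 to 0.0559). *Arr1* turned with 1 sample left out (range -0.15 to 0.0059). The cause of these turns was not tested. The 35 calls over all probe sets became 198 with the replicate block, 21 with a filter at a mean of 6, 17 without both samples of number 2, and 16 to 32 with 1 sample left out. With the block and number 1, 2 or 3 left out, settings chosen after the data were seen, they were 7, 118 and 32, and *trp* gave 0.0558, 0.0520 and -0.119. The number of arrays limits what could be called, and the 2 dim probe sets of *rdgA* carry no usable signal.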

Other observations

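The genes that flank the cascade genes on their chromosomes were read as well, taking the 3 nearest protein-coding genes on each side by RefSeq order, a choice made after the data were seen. Of 28 tested neighbours of the 8 analysed genes, none was called by limma without the block, 5 had an unadjusted p under 0.05, and 2 were called with the block. Over all tested probe sets these shares were 0.340%, 13.1% and 1.92%. *ninaD*, which lies beside *Arr1* and encodes a scavenger receptor that takes up carotenoids for the visual chromophore, differed by -1.41, -1.99 and -1.35 in the 3 pairs (limma adjusted p = 0.512, and 0.0250 with the block). *CG6435*, near *inaC*, differed by -0.64, -0.85 and -0.63 (adjusted p = 0.322, and 0.0366 with the block). Near *laza*, *CG11426* gave -0.44 ± 0.090 (adjusted p = 0.171, and 0.0572 with the block) and was lower in all 3 pairs, while *CG11438*, the gene next to *laza*, gave 0.27 ± 0.11 (adjusted p = 0.374).

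The 5 genes whose values over the 6 arrays ran most like the mean of the 8 cascade genes, each centred and scaled, were *Rga*, *prd1*, *DAAM*, *Taf6* and *Oatp30B*, with Pearson correlations from 0.979 to 0.991 as a description over 6 arrays that share their preparation. Of 9268 probe sets compared, 69 reached 0.9. That mean profile was lowest in the 10-day sample of number 3 and the 40-day sample of number 1, and so did not divide by age.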
